A study of Rattus norvegicus with 3 samples.

Results

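Potassium channel genes of the rat kidney were described on 3 arrays, as 92 genes whose name in the scanner files starts with Kcn, of 19393 named genes on the array design; 1 further gene of that name was set aside and enters no count of the family below. The animals were male spontaneously hypertensive rats (SHRs), a strain of Wistar background in which blood pressure becomes high with age. They were aged 8 to 10 weeks and weighed 280 to 330 g. A control group received water by mouth, a low-dose group received 10 mg/kg per day of HBMP, and a high-dose group received 20 mg/kg per day, each for 4 weeks in about 3 mL; the study title speaks of a hydrolysate of blue mussel protein. All groups shared the strain, sex, housing and daily dosing by mouth, and no group of rats with normal blood pressure was analysed here. Each group held 10 rats, but kidney RNA of 4 rats was pooled and hybridised to 1 single-dye oligonucleotide array, so there were 3 arrays, no replicates and no test of any difference. The arrays lay on 1 slide, and the position on it and the group cannot be told apart. The spread between animals is therefore unknown, every value below describes 1 pool, and in RNA of whole kidney a lower number of cells of a type and less RNA per cell cannot be told apart.

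Potassium channels let potassium ions cross a membrane down their gradient, which sets the membrane voltage. In the kidney they recycle potassium across the membranes of tubule cells, so that the sodium pump and the cotransporters can keep working, secrete potassium in the distal nephron and control the tone of renal vessels. The pore is built from subunits of several classes, and auxiliary subunits change how a pore opens or where it is placed.

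Each gene was represented by the probe with the highest mean signal over the arrays, and every such probe of the 92 genes was printed on 1 spot. A probe counted as measured on an array when its signal-to-noise ratio was 3 or more. Intensities are net brightness in the Cy3 channel after the 75th percentile of all probes was set equal on the arrays. They can be compared between arrays for 1 probe, but not between probes, because probes bind with different strength. Of the 92 genes, 30 were measured on all 3 arrays, 10 on 1 or 2 arrays and 52 on none. This was a share of 32.6%, against 52.8% of all named genes. The members just inside the limit were Kcnd3 and Kcns3, with a lowest ratio of 3.00, and Kcnj5 with 3.25. Just outside it were Kcnk16 with 2.86, Kcnj15 with 2.71 and Kcnh1 with 2.56. A gene not measured had too little signal at its probe, which does not show that its transcript was absent.

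**Figure D1:**
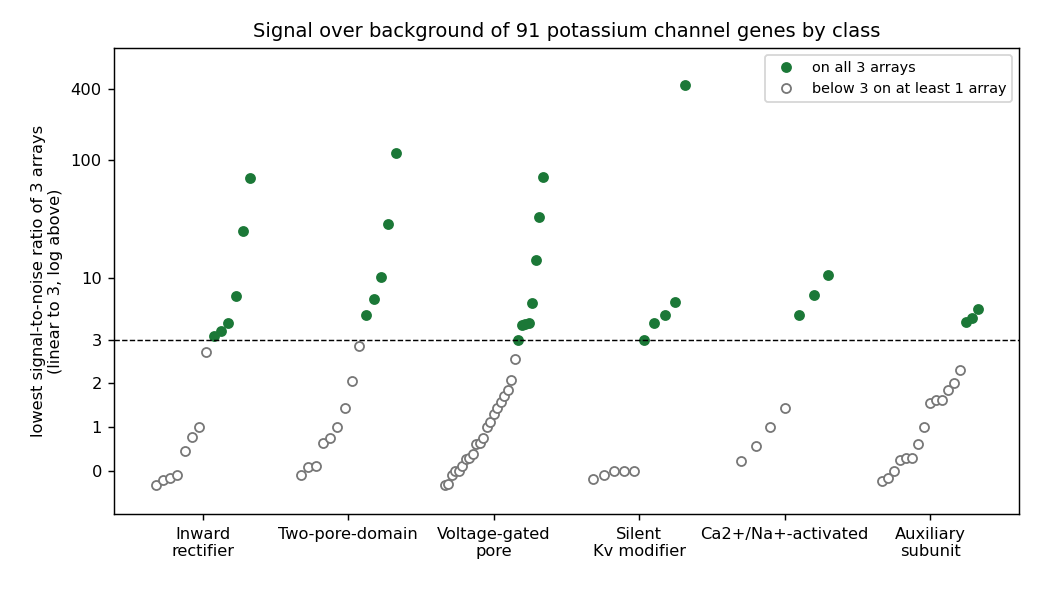
The lowest signal-to-noise ratio over the 3 arrays (vertical axis, linear up to 3 and logarithmic above) is plotted by gene in 6 channel classes, without Kcnh8, whose spot on the control array was non-uniform. Filled points are the 30 genes measured on all arrays, and most points lie below the dashed limit of 3 in each class but the silent Kv modifiers, where 5 of 10 lie on or above it.

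Marker lists of cell types were looked up on the arrays. Proximal tubule markers (8 of 8), thick ascending limb markers (5 of 5), principal cell markers (7 of 7), intercalated cell markers (6 of 6) and podocyte markers (5 of 5) on the array design were measured on all arrays. The lists of distal convoluted tubule (4 of 5), smooth muscle and pericyte (6 of 8) and endothelium (3 of 6) were measured there in part. Of 8 neuronal markers 7 were measured on none, the exception being Uchl1, at 56.2 with water, 810 at the low and 383 at the high dose. Markers of fat cells, 4 of 7 measured on all arrays, had a summed intensity of 263, 4297 and 2184, and markers of urothelium, 1 of 6 measured on all, of 170, 1452 and 892. The part of such tissue in the channel values was not tested. Between 50.6% and 54.7% of the 30367 probes were measured per array. Probes printed on 10 spots gave the technical error: the median SD of a spot's own log2 difference between high dose and control was 0.199 for probes with a mean intensity under 60, 0.117 from 60 to 300 and 0.0946 above 300. A spot SD holds nothing of the difference between animals or pools.

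No class of channels was shifted by 2-fold on either dose array. Against control, the high dose had 0 of 32 members measured on both arrays that were 2-fold or more higher and 1 that was lower by as much, where 0.856% and 0.162% of all named genes passed these limits and 1.02% passed either. That count was 0 under normexp background correction and in the authors' deposited table. At the low dose 0 of 32 passed upward and 0 downward, against a background of 2.46% and 0.783%, or 3.25% in either direction. Between the doses 0 of 30 were past 2-fold in either direction, with 0.473% of all genes higher and 1.5% lower at the high dose, 1.98% in all. The median log2 difference of the 30 members measured on all arrays was -0.12 for the high and -0.29 for the low dose, compared with -0.05 and -0.11 over all named genes, so both medians lay below those of the whole array. At the high dose 23 of 32 members lay below control, where 56.9% of all genes did. At the low dose 24 of 32 did, with a background of 64.7%. Between the doses 14 of 30 were lower at the high dose, with a background of 45.3%. All comparisons with water share the control array.

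Smaller differences were set against the technical error alone. At the high dose 13 of 30 members differed from control by more than 2 median spot SDs of probes of like brightness, 3 upward and 10 downward, where 43.5% of all genes did. At the low dose 20 of 30 did, 5 upward and 15 downward, against 48% of all genes. Between the doses 20 of 30 did, against 54.3%. The control array was the lowest of the 3 in 2 of 30 members (6.67%), Kcnj8 and Kcnk1, but in 24.3% of all genes measured on every array.

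**Figure D2:**
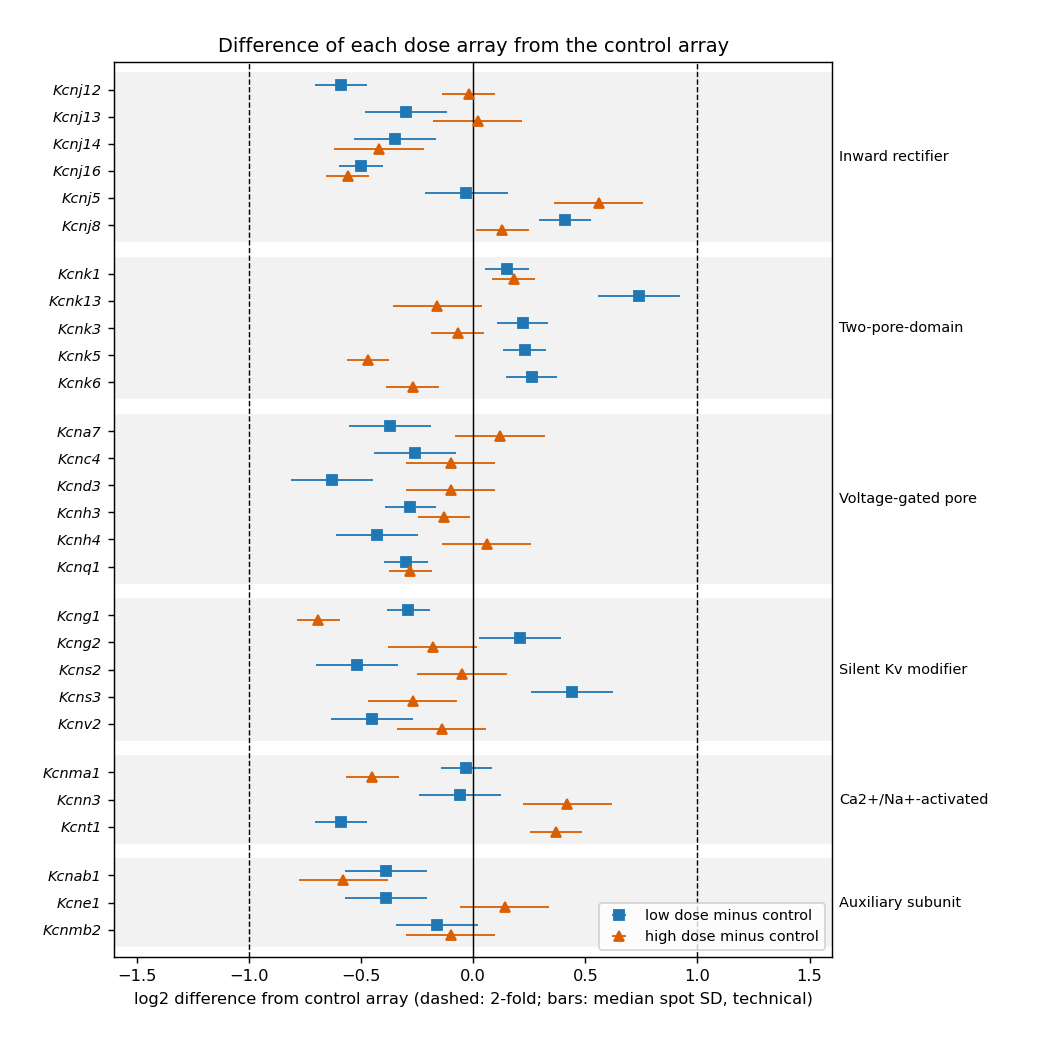
Each row is 1 of 28 measured genes, grouped by channel class, and the horizontal axis gives the log2 difference of the low-dose (squares) and high-dose (triangles) array from the control array. Bars are the median technical SD between spots of probes of like brightness and say nothing of animals; dashed lines mark 2-fold, which no plotted point passes, and the point farthest to the right is the low-dose value of Kcnk13, at 0.74.

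Voltage-gated channels open when the membrane depolarises. Of 30 pore-forming voltage-gated genes, 8 were measured on all arrays, 3 on 1 or 2 and 19 on none. All 8 lay below control at the low dose, with a median of -0.40 (log2), and 6 of 8 lay below it at the high dose, their median there being -0.12. Of all named genes 64.7% lay below control at the low and 56.9% at the high dose, with medians of -0.11 and -0.05. The low-dose direction of all 8 was the same under each scaling of the arrays that was tried, while the high-dose count below control ranged from 4 to 8 of 8. Without the limit on dim probes 23 of the 30 genes lay below control at the low dose and 6 above, and Kcnh8 had no control value.

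Kcnq1, which forms a slowly opening channel with the auxiliary subunit encoded by Kcne1 and is known from the proximal tubule brush border, stood at 834 with water, 676 at the low and 686 at the high dose. Both doses were lower, by log2 differences of -0.30 and -0.28, and did not differ from each other beyond the spot spread (0.02). All 8 proximal tubule markers were lower at both doses too, with medians of -0.42 at the low and -0.56 at the high dose. The part of tubule composition in the Kcnq1 values was not tested. Kcne1, the partner of Kcnq1, had intensities of 50.4 with water, 38.4 at the low and 55.5 at the high dose. Kcne1 was thus lowest at the low dose (-0.39) but near control at the high dose (0.14). The difference between the doses was 0.53, or 0.21 under normexp.

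Another 5 voltage-gated pores also had their lowest value at the low dose. Kcnh3, a channel of the ether-a-go-go family known from brain, was at 165 with water, 136 at the low and 151 at the high dose. Kcnd3, an A-type channel that inactivates fast, was at 40.1, 25.9 and 37.3. It differed from control by -0.63 at the low dose, or -0.31 under normexp, and by -0.10 at the high dose. Kcnh4 differed by -0.43 and 0.06, Kcna7 by -0.37 and 0.12, and Kcnc4 by -0.26 and -0.10. The probes of Kcnd3, Kcnh4, Kcna7 and Kcnc4 were dim, between 24.0 and 53.7 on every array, and over all genes with a mean intensity under 60 the low-dose median was -0.18. Genes measured on no array included Kcnh1 and Kcnd1.

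The modifiers known as electrically silent subunits form no channel alone, and change the gating of certain voltage-gated pores when they join them. Of 10 genes 5 were measured on all arrays and 5 on none, among the latter Kcng3, Kcng4 and Kcnf1. At the high dose all 5 measured modifiers lay below control (4 of 5 with net median intensity), where 56.9% of all genes did. Their values ran from -0.69 to -0.05. The -0.69 came from a Kcng1 probe without a match to the RefSeq transcript of Kcng1, and the measured RefSeq probe gave -0.42. The low-dose values were split, 3 below and 2 above. Kcnv2 was at 65.3 with water, 48.0 at the low and 59.1 at the high dose, and Kcns2 at 48.1, 33.6 and 46.4. Both were lowest at the low dose, with differences of -0.45 and -0.52, the latter -0.29 under normexp. Kcns3 was highest there instead, at 32.6 between 24.1 on the control and 20.0 on the high-dose array, and so was Kcng2, at 34.5 with 29.8 and 26.4 on the control and high-dose arrays. Kcns3 lay at the limit of detection.

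Kcng1, the remaining modifier, showed how far a value can depend on the probe. The brightest of its 4 probes gave 5106 with water, 4181 at the low and 3166 at the high dose, a difference of -0.29 and -0.69. The next brightest gave 3721, 4133 and 3364, so that its low-dose value lay above control by 0.15. Both are annotated only with an old channel cDNA record and a transcript described as LRRGT00156, not with a RefSeq transcript of Kcng1. The same cDNA record is listed for a probe of Pigr, the receptor that carries immunoglobulin across epithelia, which gave 6164, 4906 and 4027, a difference of -0.33 and -0.61. An unnamed probe of the LRRGT00156 transcript gave 5046, 4056 and 3162. The 2 probes on the RefSeq transcript of Kcng1 gave 56.2, 39.3 and 41.9 in one case and, below the limit on every array, 18.3, 16.3 and 20.0 in the other. From the measured RefSeq probe the differences of Kcng1 were -0.51 at the low dose and -0.42 at the high dose, so both doses were below control, as for the brightest probe, but the high dose was not the lower one. Which transcript the bright probes bind was not tested.

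**Figure D3:**
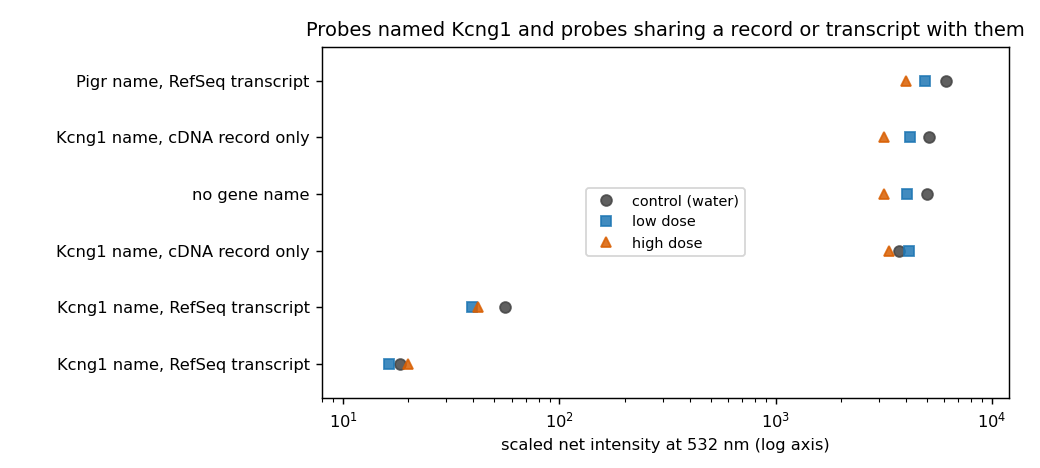
Scaled net intensity (logarithmic axis) on the 3 arrays is plotted for the 4 probes named Kcng1 and for 2 others that list the cDNA record or the transcript of the brightest of them. The 2 probes on the RefSeq transcript of Kcng1 lie below 60, while the other 4, among them the Pigr probe, lie at 3162 or above.

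Two-pore-domain channels carry the background potassium leak that holds the resting voltage. Of 14 genes 5 were measured on all arrays, 3 on 1 or 2 and 6 on none, among these Kcnk7, Kcnk18 and Kcnk4. All 5 lay above control at the low dose, from 0.15 to 0.74 with a median of 0.23, whereas the median of all named genes was -0.11. At the high dose 4 of 5 lay below control (3 of 5 in the authors' deposited table and with net median intensity), where 56.9% of all genes did. The class median was -0.16 there and -0.54 between the doses. The low-dose direction of these 5 held under each scaling tried, but no test was possible with 1 array a group. Without the limit on dim probes 8 of 14 lay above control at the low dose and 6 below. The median between the doses was then 0.13, with 9 of 14 higher at the high dose and 5 lower.

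Kcnk5, an acid-sensitive channel of the proximal tubule that takes part in bicarbonate reabsorption, was at 1334 with water, 1562 at the low and 961 at the high dose. The low dose was highest and the high dose lowest, with differences from control of 0.23 and -0.47 and a difference between the doses of -0.70. Over the settings tried the last value ran from -0.73 to -0.65. All 8 proximal tubule markers lay below control on both dose arrays, with medians of -0.42 at the low and -0.56 at the high dose. Kcnk5 thus differed from them in direction at the low dose and shared their direction at the high dose. The part of tubule composition in the Kcnk5 values was not tested.

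Kcnk13, a channel known from microglia, had the largest difference of the class. Its intensity was 35.5 with water, 59.5 at the low and 31.8 at the high dose, so the low dose stood alone at 0.74 above control and the doses differed by -0.90. Under normexp these values were 0.26 and -0.45, and under quantile normalization the difference between the doses was -1.02. A second probe of Kcnk13 was measured on no array. Of 6 macrophage markers measured, 5 were likewise highest at the low dose, 4 of them at least 2-fold above control, with a list median of 1.17. Csf1r, at 61.9 with water, 50.8 at the low and 80.1 at the high dose, was lowest there instead. With the high dose 2 of 6 lay below control, as Kcnk13 did, and the list median was 0.20. The summed intensity of the macrophage list was 2284 with water, 5006 at the low and 2306 at the high dose. Their part in the Kcnk13 value was not tested.

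The remaining channels of the class differed less. Kcnk6 was at 132 with water, 158 at the low and 109 at the high dose, again highest at the low dose, with a difference between the doses of -0.54. Kcnk3, an acid-sensitive channel of vascular smooth muscle and the adrenal gland, was at 84.8, 98.8 and 81.0. Kcnk1, a weak leak channel abundant in kidney, was at 599, 664 and 679, and was the one measured gene of the class above control at both doses, by 0.15 and 0.18.

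**Figure D4:**
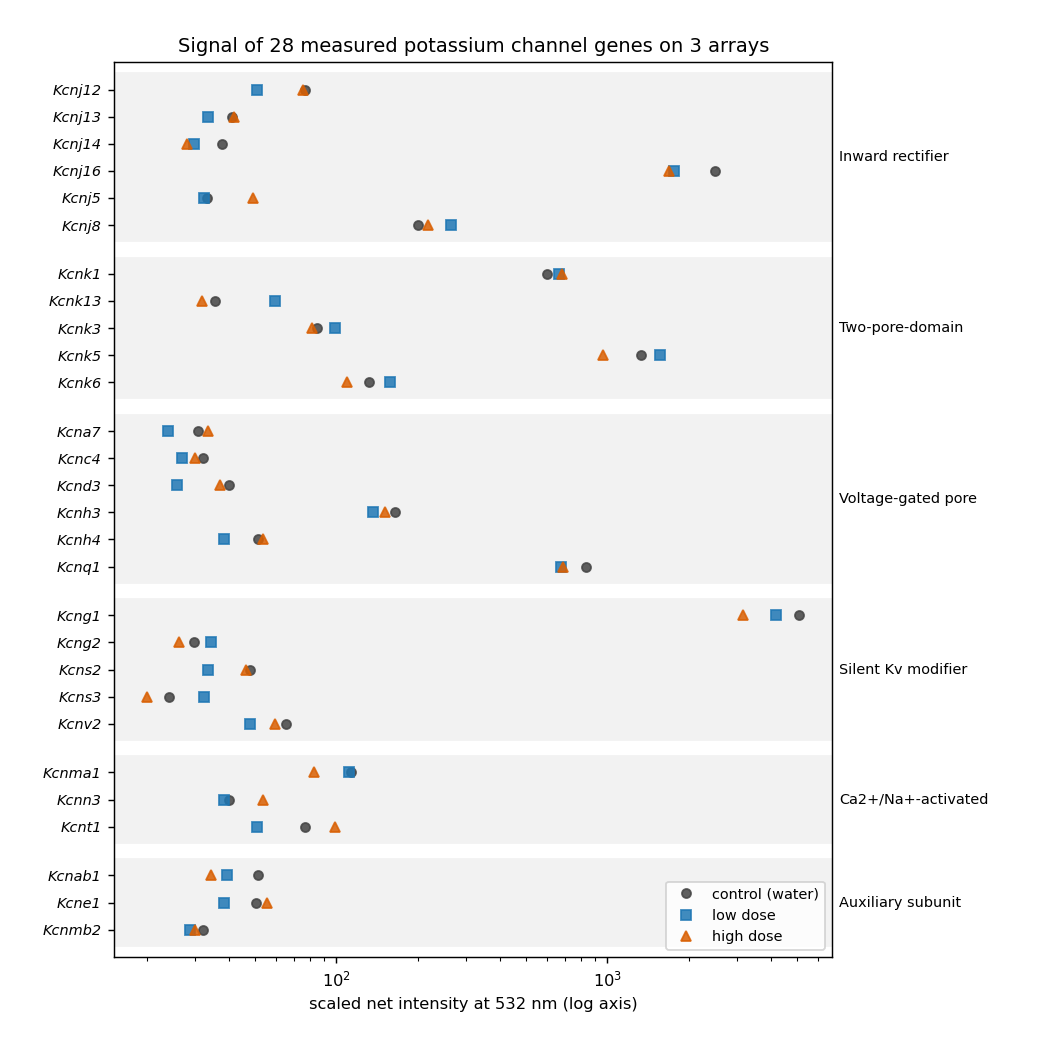
Scaled net intensity (logarithmic axis) of 28 of the 30 measured genes on the control (circles), low-dose (squares) and high-dose (triangles) arrays, in rows grouped by channel class. Values are comparable along a row and not between rows; in the two-pore-domain rows the square is the highest point in each gene but Kcnk1, and in all 6 voltage-gated rows the square lies left of the circle.

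Inward rectifiers pass potassium near the resting voltage and are gated by lipids, G proteins or nucleotides. Of the 14 genes kept, 6 were measured on all arrays, 1 on 1 array and 7 on none. At the low dose 5 of 6 lay below control, where 64.7% of all genes did, and the class median was -0.32. The count was 4 of 6 under quantile normalization and with position on the array subtracted. At the high dose 3 lay above and 3 below, with a range from -0.56 to 0.56.

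Kcnj16 encodes a basolateral subunit of the distal tubule that works as a partner of the Kcnj10 product. It was at 2484 with water, 1757 at the low and 1684 at the high dose, and so lay below control at both doses, by -0.50 and -0.56, with no difference between the doses beyond the spot spread (-0.06). Of 5 distal convoluted tubule markers 4 were measured on all arrays, 3 of them below control at each dose, and their summed intensity was 3251, 2647 and 2330. Among them the sodium chloride cotransporter Slc12a3 was at 2416, 1828 and 1531, a difference of -0.40 and -0.66. The part of these cells in the Kcnj16 value was not tested. Kcnj10, named here after its values were seen, was not above background on any array, although its partner gene was measured on all of them. The scaled net signal of Kcnj10 was at most 0.959, from 1 probe on 1 spot. An absent transcript and a probe that binds poorly cannot be told apart here.

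Kcnj8 encodes the pore of the vascular channel that closes when the cell is rich in ATP, and Abcc9 encodes its regulatory subunit. Kcnj8 was at 199 with water, 265 at the low and 218 at the high dose, and Abcc9 at 123, 176 and 137. Both genes were highest at the low dose, by 0.41 and 0.52, and close to control at the high dose, by 0.13 and 0.16. The pericyte receptor Pdgfrb, at 240, 361 and 200, was also highest at the low dose, but the contractile gene Acta2, at 120, 168 and 201, was highest at the high dose. The 8 smooth muscle and pericyte markers, 6 of them measured on all arrays, had a summed intensity of 739, 1254 and 1161, and their part in the Kcnj8 value was not tested. The other ATP-sensitive pore gene, Kcnj11, was measured on no array, and its regulatory subunit Abcc8 was at 164 with water, 81.5 at the low and 120 at the high dose, 2.01-fold lower at the low dose.

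The remaining inward rectifiers were dim, with a mean intensity under 60, except for Kcnj12, which lay just above that. Kcnj12, a strong rectifier of muscle, was at 76.8 with water, 50.8 at the low and 75.5 at the high dose. The low dose alone was lower, by -0.59, or -0.36 under normexp. Kcnj5, a G protein-gated channel of heart and adrenal cortex, was at 33.2, 32.6 and 49.1, higher at the high dose alone by 0.56, or 0.12 under normexp. Its second probe was measured on no array. Kcnj13 differed from control by -0.30 and 0.02 and Kcnj14 by -0.35 and -0.42 at the low and high dose. Genes measured on no array also included Kcnj9 and Kcnj3.

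Promoters were compared by signal, since many channel genes were not measured. RefSeq promoters on the assembly GRCr8, from 250 bases before to 50 after a start, were used where that start lay within 100 bases of the outer start of the gene, which left 32 of the 92 genes. The dinucleotide CG, which clusters in the promoters of broadly expressed genes, was counted on 1 strand, where it reads the same on both. At least 10 copies were held by 6 of 7 members measured on all arrays, by 1 of 4 measured on some and by 14 of 21 measured on none (66.7%). Over all named genes the shares were 82.3% of those measured on all arrays and 46.2% of those measured on none. The unmeasured channel genes with such a promoter thus lay between both groups of all genes. A count of letters is a description of these windows and no cause of a signal.
The promoters of Kcnk5, measured on all arrays, and of Kcnj10, measured on none, are shown as examples of CG-rich windows on both sides, chosen after the values were seen. Capitals mark each CG, with 30 copies in Kcnk5 at chr15:4171375-4171674 (plus strand) and 20 in Kcnj10 at chr13:87334260-87334559 (plus strand).
Kcnk5: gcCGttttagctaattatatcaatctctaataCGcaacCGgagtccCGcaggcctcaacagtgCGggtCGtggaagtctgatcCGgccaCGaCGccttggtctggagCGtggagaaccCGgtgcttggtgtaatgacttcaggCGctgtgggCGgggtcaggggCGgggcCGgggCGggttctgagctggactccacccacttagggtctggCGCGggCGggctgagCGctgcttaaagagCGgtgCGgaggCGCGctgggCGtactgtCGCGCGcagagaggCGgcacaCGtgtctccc
Kcnj10: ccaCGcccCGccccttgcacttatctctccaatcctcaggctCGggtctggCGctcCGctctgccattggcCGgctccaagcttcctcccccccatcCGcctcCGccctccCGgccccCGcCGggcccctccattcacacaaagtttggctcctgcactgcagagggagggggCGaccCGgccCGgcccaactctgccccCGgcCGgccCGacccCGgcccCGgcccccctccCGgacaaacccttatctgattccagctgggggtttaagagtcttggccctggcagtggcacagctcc

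Channels opened by calcium or sodium inside the cell had 3 of 7 genes measured on all arrays and 4 on none, among them Kcnn4, Kcnn2 and Kcnt2. Kcnma1 encodes the large-conductance calcium-activated pore, which secretes potassium at high tubular flow and relaxes vessels. It was at 113 with water, 111 at the low and 82.8 at the high dose, lower at the high dose alone by -0.45. A dimmer Kcnma1 probe, measured on control and high dose, differed by -0.19 there, and the last of its 3 probes was measured on no array. Kcnt1, a sodium-activated channel known from neurons, was at 76.8, 50.8 and 99.2. It was lowest at the low dose (-0.59) and highest at the high dose (0.37), so that the doses differed by 0.96, the largest positive difference between doses among the 30 measured members, or 0.53 under normexp. Kcnn3, a small-conductance channel, was at 40.1, 38.4 and 53.7, higher at the high dose by 0.42.

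Auxiliary subunits and regulators had 3 of 17 genes measured on all arrays, 3 on 1 or 2 and 11 on none, among the last Kcnip1, Kcnmb3 and Kcne3. Besides Kcne1, these were Kcnab1 and Kcnmb2. Kcnab1, a cytosolic subunit that speeds inactivation of voltage-gated pores, was at 51.6 with water, 39.3 at the low and 34.6 at the high dose. It differed from control by -0.39 and -0.58, the latter -0.36 under normexp. Its second probe was measured on no array. Kcnmb2, a subunit of the Kcnma1 channel, was at 32.1 with water and 28.8 at the low dose and differed by -0.10 at the high dose. Its second measured probe was at 32.1 and 24.0, and likewise at -0.10 at the high dose. The other member with several probes measured on all arrays was Kcng1.

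Among the 10 members measured on only some arrays, the largest folds belonged to Kcnmb1, the smooth muscle subunit of the Kcnma1 channel. It was measured on the control array alone, at 25.2. This was 2.19-fold the value taken for the low dose and 3.08-fold that for the high dose. The value taken was the lowest measured signal of any probe on the dim array, or the probe's own signal where that was higher. Kcnk12 missed the limit on the high-dose array at 35.5, so these folds are no strict lower bounds. The single spot of Kcnmb1 lies in the array corner of weak signals, and has no value once that corner is left out. Kcnk16 was measured on the control array at 39.0 and the high-dose array at 30.9 but not at the low dose. Its unmeasured signal there was 2.03-fold lower than control. Its other 2 probes were measured on no array. Kcnmb4 was measured at the low dose alone, at 28.8, which was 1.79-fold above its unmeasured control signal. Kcna6 was 1.63-fold lower at the low dose, where it was not measured, than on the control. Folds for Kcnk2, Kcnc2 and Kcne4 were under 1.8, and none could be given for Kcnj15 and Kcnk12, whose dim value was the higher.

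Genes that handle potassium beside the channels were taken as a list of 48, of which 47 were on the array design and 33 were measured on all arrays. At the high dose 1 of 33 passed 2-fold upward (background 0.856%) and 0 downward (0.162%), with a median of 0.01. For the low dose the counts were 3 upward (2.46%) and 1 downward (0.783%), with a median of -0.24. All the higher genes were small partners of the sodium pump. Fxyd1, known from muscle and heart, was at 27.5 with water, 131 at the low and 87.3 at the high dose. Fxyd4, the partner in the collecting duct, was at 1613, 4070 and 3089, a difference of 1.33 and 0.94, and Fxyd5 at 213, 480 and 283. The gene past 2-fold downward was Abcc8.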

How the data were processed

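Kidney RNA pools of 3 groups were labelled with Cy3 and hybridised to 1 array each. The authors deposited scanner files that hold each spot's intensity at 532 nm, read by GenePix Pro 6.1.0.4 and from which the mean of negative controls in the block is subtracted, per the file headers. The signal-to-noise ratio and flag of each spot were deposited as a score; the deposited file also gives saturated pixels as a percent. Agilent Feature Extraction is the tool in the submitters' processing notes. The authors also deposited log2 values of the same arrays, scaled between arrays by a method not given in the sources used here. The 3 arrays lay on 1 slide. In the high-dose array's header a mouse design is given, yet each spot has the rat annotation found on the others, and it was read as such.

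Control spots were left out, as were bright spots the software had not found (6 with water, 5 at the low and 6 at the high dose) and non-uniform spots, with a mean over 1.5-fold away from the median of their pixels (135, 131 and 70). The spots of a probe were averaged, each array was scaled to an equal 75th percentile (factors 1.15, 0.959 and 0.91), and log2 was taken after values under 1 were raised to 1. A probe was measured when 50% or more of its spots reached a ratio of 3. With 1 array per group, genes were described by a 2-fold size rule and no test was run. Members measured on all arrays were named with their values, and those on some arrays with a fold where the measured signal was the higher. Up to 3 per class of those on none were named. Of the potassium handling list, the genes past 2-fold and up to 4 partners of named channels were named. Kcnj10 and the second Kcng1 probes were added after their values were seen. Some genes of the family and the list are counted but not reported by name here. The members and lists were chosen with earlier results of these data known. Of the 92 genes, 89 matched a RefSeq transcript (GRCr8) of the probe used, and Kcne1l is now named Kcne5. Python 3.11.15, numpy 2.4.6, pandas 2.3.3 and limma 3.58.1 were used. The proteins the naming rule foresaw were not used here. The calculation was tested on simulated data, in which 100% of 200 probes changed by 4-fold were recovered in the comparison of high dose with control over 30367 probes. The changed probes were drawn only from bright ones measured on all arrays, and recovery was counted at 2-fold. The simulation therefore checks the arithmetic, and says nothing of dim probes or of differences under 2-fold. The number of arrays limits the precision.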

Additional observations from a re-analysis of the deposited data

How the results depend on the processing

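Of 14 alternatives, 12 were planned and 2 (the RefSeq-matched probe and a correction for position on the array) were chosen after seeing the data. Over them 114 values of the comparisons stayed close to those reported and 12 moved. A median counted as close when it moved by no more than the largest median spot SD of its comparison, 0.199 for high dose against control. This is a wide limit for small medians. The high-dose median of -0.12 was -0.28 with a signal-to-noise limit of 5 and still counted as close. The count of members 2-fold lower at the high dose, 1 as reported, was 0 with normexp and 0 in the authors' deposited table. Between the doses 1 member, Kcnk13, passed 2-fold downward under quantile normalization (-1.02) and in the authors' table (-1.05). With no limit on dim probes the members past 2-fold were 6 higher and 8 lower at the high dose, 2 higher and 13 lower at the low dose, and 12 higher and 3 lower between the doses, since probes near background were then counted. The median between the doses was -0.23 with a signal-to-noise limit of 5 and 0.30 with no limit, in place of 0.03. Of the class medians and single genes 496 values stayed close, 40 moved and 2 lost the 2-fold call. Only 1 gene value was past 2-fold as reported, and it kept its sign. Some class medians changed sign. Between the doses that of the silent modifiers was -0.39, but 0.09 with the RefSeq-matched probe. At the high dose that of the calcium- or sodium-activated channels was 0.37, but -0.04 with a signal-to-noise limit of 5, from 2 genes. No paired analysis was possible because each group has 1 array. Signal over background limits the 16 measured members with a mean intensity under 60.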
